A study of Mus musculus with 79 samples.

Results

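The pericyte and smooth muscle genes, which mark the mural cells of blood vessels, were followed in a mouse model of delayed nerve repair. The 10 symbols are Acta2, Tagln, Myh11, Des, Rgs5, Pdgfrb, Notch3, Kcnj8, Cspg4 and Mcam. They were taken by symbol from the count tables, and all 10 of the 10 were found among the 23361 genes of each table. All mice carried the S100β-eGFP transgene, in which the human S100β promoter drives GFP in Schwann cells (SC), and both sexes were used; no age was given in the sources used here. A freshly cut common peroneal nerve was sutured to the distal stump of the tibial nerve, with a silicone conduit at the junction. In the delayed group the tibial nerve had been cut and its end sutured to the quadriceps muscle for 8 weeks before the repair. In the immediate group the suture followed the cut at once, after a sham incision 8 weeks earlier. Total RNA of the whole distal stump was taken 5 days after the suture, in 9 delayed (4 male and 5 female) and 7 immediate animals (4 male and 3 female). From the bridge in the conduit, SC and macrophages were sorted 5 and 14 days after the suture, which gave 31 SC fraction and 32 macrophage libraries of about 1000 sorted cells each. The 79 libraries come from 32 animals. The labels give the bridge as the tissue of every sample and the distal stump only as the cell type of the stump samples, which are described here as stump.

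Mural cells wrap the endothelial tube of a vessel. Pericytes sit in the basement membrane of capillaries and, in nerve, form part of the blood-nerve barrier, while smooth muscle cells ring the larger vessels of the epineurium and set their tone. Endothelial cells recruit mural cells by releasing PDGF-B, which is bound by the receptor encoded by Pdgfrb, and they signal to them through Jag1 and other Notch ligands, which are bound by Notch3 on the mural cell. None of the 10 genes is made by mural cells alone: myofibroblasts can make Acta2 and Tagln, skeletal muscle fibres make Des, fibroblasts make Pdgfrb, endothelial cells make Mcam, and other cells of nerve can carry Cspg4.

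The stump libraries held 3898778 to 9212710 counts and the sorted libraries 11614940 to 30796825. Levels in the stump are given as CPM, counts scaled to the size of the library, after TMM scaling, which matches the libraries on the bulk of their genes. A gene was tested when it reached 5 CPM in at least 6 of the libraries compared, and called at a Benjamini-Hochberg adjusted p under 0.05 in edgeR's quasi-likelihood test over all genes tested. In a bulk sample, fewer cells of a type and less RNA per cell cannot be told apart. In 2 delayed stump libraries, replicates 5 and 9, 15 skeletal muscle markers summed to 3082 and 274.6 CPM, against 6.30 to 50.8 CPM in the other 7 delayed and 5.02 to 9.91 CPM in the 7 immediate libraries. The sum was above the highest immediate library in 7 of 9 delayed libraries (median 16.8 CPM, against 6.98 CPM), so muscle markers were not confined to those 2. Values without both, called the muscle-gene libraries, are given where they matter; that alternative was chosen after the values were seen, and the libraries it keeps still hold muscle markers at the levels given above.

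In the distal stump at day 5, 5 of the 10 mural genes were higher after delayed than after immediate repair, and Cspg4 was lower. All 10 genes passed the filter, and 6 of the 10 were called, where 26.3% of the 12229 genes tested were called in either direction. Acta2, Des, Rgs5, Pdgfrb and Notch3 were higher after delay (5 of 10, against 12.8% of all genes tested), and Cspg4 was lower (1 of 10, against 13.5%). Tagln, Myh11, Kcnj8 and Mcam did not pass the test. The median log2 fold change of the 10 genes was 0.53, beside a median of 0.019 over all genes tested. The groups overlapped for every one of the 10; among all genes tested, the libraries of the groups did not overlap for 1.12% on the higher and 3.56% on the lower side.

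**Figure D1:**
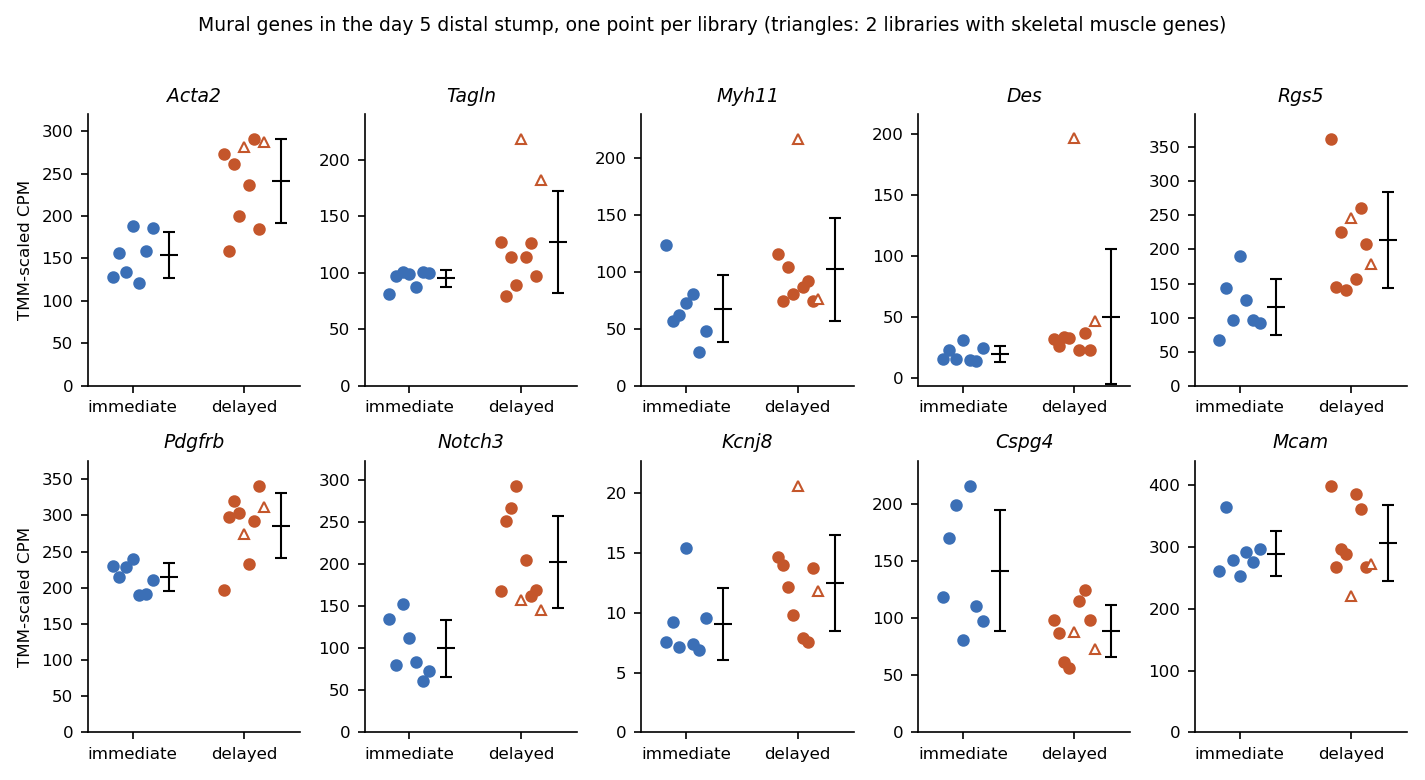
Level of the 10 mural genes in the day 5 distal stump in TMM-scaled CPM on linear axes, one panel per gene, for 7 immediate and 9 delayed libraries. Points are libraries, bars give the mean ± SD, and open triangles mark delayed replicates 5 and 9, which hold the most skeletal muscle markers; Notch3 and Acta2 sit mostly above the immediate libraries after delay, all 9 delayed values of Cspg4 lie below the immediate mean, and the highest Des value is a triangle at 196.4 CPM, which takes the SD bar of the delayed group below 0.

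The contractile genes come first. Acta2 (chr19:34241090-34255590, minus strand in the GRCm38 build) encodes smooth muscle α-actin, the thin-filament actin of vascular smooth muscle. It ranged from 121.6 to 188.7 CPM in the immediate libraries, with a median of 156.8, and from 158.5 to 290.8 CPM in the delayed libraries, with a median of 261.2. In 7 of 9 delayed libraries it was above the highest immediate library, and all 9 were above the immediate mean. After delay Acta2 was higher by 0.65 in log2 fold change (SE 0.14, adjusted p = 0.00253, edgeR), and it was 0.58 (adjusted p = 0.0106) without the muscle-gene libraries. Acta2 is close in sequence to the other muscle actins, and how the authors' counting split shared reads is not given in the sources used here; Acta1, the skeletal actin, reached 562.6 CPM in delayed replicate 5, the library with the most muscle markers, and 1.595 CPM or less in the immediate libraries.

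Tagln (chr9:45929619-45936058, minus strand) encodes transgelin, an actin-binding protein of smooth muscle. Its immediate libraries lay between 81.2 and 100.7 CPM, around a median of 99.3, and its delayed libraries between 79.8 and 218.7 CPM, around a median of 114.2. The highest pair were delayed replicates 5 and 9, at 218.7 and 181.9 CPM, the libraries with the most muscle markers. The log2 fold change of 0.42 (SE 0.17, adjusted p = 0.0825, edgeR) did not pass the test, and it was 0.17 (adjusted p = 0.25) without those libraries. Leaving out delayed replicate 2 alone put it past the threshold, at 0.49 (adjusted p = 0.0408). Tagln shares 108 exon bases with Pcsk7 on the other strand, which held 61.2 ± 11.01 CPM (SD, n = 9) after delay and 49.7 ± 4.39 CPM (SD, n = 7) after immediate repair.

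Myh11 (chr16:14194535-14291372, minus strand) encodes the smooth muscle myosin heavy chain, the motor protein of the contractile cell. Values ran from 30.0 to 123.7 CPM after immediate repair (median 62.2) and from 74.1 to 216.9 CPM after delay (median 86.5). Every delayed library was above the immediate mean, but only delayed replicate 5 was above the highest immediate library. For Myh11 a log2 fold change of 0.60 was found (SE 0.27, adjusted p = 0.107, edgeR). It passed the threshold in limma-voom with sample weights (0.81, adjusted p = 0.0196) and without immediate replicate 1 (0.80, adjusted p = 0.0294), and was 0.42 (adjusted p = 0.186) without the muscle-gene libraries.

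Des (chr1:75360329-75368579, plus strand) encodes desmin, the intermediate filament of muscle cells and of many pericytes. The immediate libraries held 14.2 to 31.3 CPM (median 15.6) and the delayed libraries 22.9 to 196.4 CPM (median 32.8). All 9 delayed libraries were above the immediate mean, and delayed replicate 5 stood apart at 196.4 CPM, with the next at 47.1 CPM. The log2 fold change of 1.34 (SE 0.43, adjusted p = 0.0292, edgeR) fell to 0.68 without that library, to 0.58 (adjusted p = 0.0349) without both muscle-gene libraries and to 0.65 (adjusted p = 0.00545) in DESeq2. The call was lost with sex as a covariate (1.18, adjusted p = 0.0578) and when immediate replicate 1, 2, 3, 6 or 7 was left out, with adjusted p between 0.0518 and 0.0637 and log2 fold changes between 1.26 and 1.36. Of the 7 delayed libraries left without both, 5 still held more muscle markers than any immediate library. The part of muscle RNA in the levels of Des and Tagln was not tested.

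Of the 10 genes, 7 matched a promoter window of RefSeq on GRCm38.p6, while Tagln, Myh11 and Pdgfrb had no entry. The 250 bases before the start site of Acta2, Rgs5 and Notch3 are shown because these are the called genes with the smallest p among the 7. All were called higher, but they did not move together between animals of a group (r with Notch3 of -0.46 for Acta2 and -0.34 for Rgs5). Capitals mark matches to 2 motifs that were searched on both strands: the CArG box, the site of serum response factor, with up to 1 mismatch among its 6 inner bases, and TGGGAA, the core bound by RBPJ, the DNA-binding partner of Notch.
Acta2, chr19:34255374-34255623, minus strand: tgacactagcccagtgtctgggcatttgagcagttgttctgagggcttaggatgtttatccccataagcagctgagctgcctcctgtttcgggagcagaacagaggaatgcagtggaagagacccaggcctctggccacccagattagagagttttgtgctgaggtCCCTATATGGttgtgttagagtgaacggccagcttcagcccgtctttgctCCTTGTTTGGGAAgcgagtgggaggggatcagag
Rgs5, chr1:169655251-169655500, plus strand: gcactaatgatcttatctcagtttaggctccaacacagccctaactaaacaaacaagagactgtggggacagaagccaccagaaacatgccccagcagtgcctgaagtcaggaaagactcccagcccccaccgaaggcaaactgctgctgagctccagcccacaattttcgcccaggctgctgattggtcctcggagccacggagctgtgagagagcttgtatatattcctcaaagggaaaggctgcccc
Notch3, chr17:32166891-32167140, minus strand: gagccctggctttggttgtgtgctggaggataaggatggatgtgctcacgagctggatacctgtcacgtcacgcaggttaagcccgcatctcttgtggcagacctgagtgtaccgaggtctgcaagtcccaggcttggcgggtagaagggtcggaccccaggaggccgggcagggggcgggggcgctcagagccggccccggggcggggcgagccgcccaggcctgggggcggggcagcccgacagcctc

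Acta2 was the only one of the 7 windows with a match. It held 2 CArG-like matches, at positions -84 to -75 and -34 to -25 from the start, and 1 TGGGAA at -27 to -22, which overlaps the second. Of the 32851 windows of the same length in the table, 8.59% held a CArG-like match, 1.47% a CArG box with no mismatch and 21.6% a TGGGAA on either strand. None of the 7 windows held a CArG box with no mismatch. A match is a description of letters and not of binding, which was not measured here.

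Among the signalling genes, Notch3 and Rgs5 changed most. Notch3 (chr17:32120820-32166852, minus strand) encodes the Notch receptor of mural cells. The immediate libraries lay between 61.7 and 153.0 CPM (median 83.9) and the delayed libraries between 146.0 and 293.5 CPM (median 169.1). In 8 of 9 delayed libraries it was above the highest immediate library. Its log2 fold change was 1.02 (SE 0.20, adjusted p = 0.00155, edgeR), the smallest p of the 10 genes, and the call held without each library in turn, with log2 fold changes of 0.92 to 1.15. Within males the mean was 245.1 ± 54.0 CPM (SD, n = 4) after delay and 120.1 ± 31.6 CPM (SD, n = 4) after immediate repair; within females the means were 168.1 ± 22.4 (SD, n = 5) and 73.0 ± 11.1 CPM (SD, n = 3).

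Rgs5 (chr1:169655501-169695813, plus strand) encodes a regulator of G-protein signalling that is among the most abundant transcripts of pericytes. It ran from 67.2 to 190.4 CPM (median 96.5) after immediate repair and from 140.0 to 362.1 CPM (median 208.5) after delay. All 9 delayed libraries were above the immediate mean and 5 of 9 above the highest immediate library, which was replicate 4. Rgs5 had a log2 fold change of 0.88 (SE 0.22, adjusted p = 0.00795, edgeR) and 0.89 (adjusted p = 0.0153) without the muscle-gene libraries.

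Pdgfrb (chr18:61045150-61085061, plus strand) encodes the receptor through which PDGF-B recruits pericytes, and fibroblasts make it too. Immediate libraries held 189.9 to 239.4 CPM (median 214.8), delayed libraries 197.0 to 341.2 CPM (median 298.2), and 7 of 9 delayed libraries exceeded the highest immediate one. The rise was the smallest among the called genes, with a log2 fold change of 0.41 (SE 0.10, adjusted p = 0.00735, edgeR). Of 10 fibroblast markers tested in the same stumps, 0 were called in edgeR and 0 in DESeq2 (2 at an unadjusted p under 0.05), with a median log2 fold change of 0.34; without delayed replicate 1 or immediate replicate 4, Pdgfra, which marks fibroblasts, was called. Centred on group means, Pdgfrb moved with the mean of the fibroblast markers (Pearson's r = 0.57 over 16 libraries and 0.64 over the 14 left without the muscle-gene libraries), the highest r of the 10 genes with that list, while Mcam had the lowest (-0.775 and -0.688). This is a description of libraries that share their composition, and the part of fibroblast RNA in the level of Pdgfrb was not tested.

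Kcnj8 (chr6:142564837-142571614, minus strand) encodes the pore of the ATP-sensitive potassium channel of mural cells. It was the least abundant of the 10, at 6.88 to 15.4 CPM (median 7.54) after immediate repair and 7.54 to 20.6 CPM (median 12.2) after delay, on 31 to 147 counts per library. The log2 fold change of 0.46 (SE 0.21, adjusted p = 0.12, edgeR) did not pass the test. Without immediate replicate 4, the highest of its group, it was 0.64 and passed (adjusted p = 0.0238). Abcc9, which encodes the regulatory subunit of the same channel, was called higher, with a mean of 92.5 ± 30.3 CPM (SD, n = 9) after delay and 54.5 ± 16.3 CPM (SD, n = 7) after immediate repair, and a log2 fold change of 0.76 (SE 0.20, adjusted p = 0.00994, edgeR).

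The surface proteoglycan gene went the other way. Cspg4 (chr9:56865033-56899870, plus strand) encodes NG2, a proteoglycan on pericytes and on some other cells of nerve. Immediate libraries lay between 80.9 and 216.3 CPM (median 118.3) and delayed libraries between 56.1 and 124.6 CPM (median 88.3). All 9 delayed libraries were below the immediate mean, and 3 of 9 were below the lowest immediate library. Cspg4 had a log2 fold change of -0.67 (SE 0.21, adjusted p = 0.0258, edgeR). The call was lost without the muscle-gene libraries (-0.62, adjusted p = 0.0587) and when immediate replicate 2, 3 or 6 was left out (adjusted p of 0.0543, 0.0543 and 0.067). Centred on the mean of each group and on a log2(CPM + 1) scale, the level of Cspg4 moved with the mean of the tested Schwann cell markers over the 16 stump libraries (Pearson's r = 0.74, Spearman's rho = 0.83), with r = 0.80 within the 9 delayed and 0.89 within the 7 immediate libraries. With the perineurial markers the same values were 0.80, 0.82, 0.79 and 0.82. These libraries share their depth and composition, and the relation is given as a description. Beside the fall of Cspg4, 9 Schwann cell markers summed to 91.1 to 543.3 CPM in the delayed stumps and 991.6 to 2279 CPM in the immediate stumps; the part of that difference in the level of Cspg4 was not tested.

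Mcam (chr9:44134469-44142727, plus strand) encodes CD146, an adhesion molecule of pericytes, smooth muscle and endothelium. Its level was 253.6 to 363.9 CPM (median 279.4) after immediate repair and 220.2 to 399.4 CPM (median 288.7) after delay. The groups overlapped, with 4 of 9 delayed libraries above the immediate mean, at a log2 fold change of 0.086 (SE 0.12, adjusted p = 0.635, edgeR).

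Per kilobase of exon, which allows genes to be compared, the 10 genes lay in a wide range of levels in the stump. After immediate repair Mcam was highest, at 86.3 ± 10.9 CPM per kb (SD, n = 7), followed by Acta2 at 69.9 ± 12.3, Tagln at 47.9 ± 3.88, Pdgfrb at 39.2 ± 3.51, Rgs5 at 25.5 ± 9.03 and Notch3 at 12.35 ± 4.24. Cspg4, Myh11, Des and Kcnj8 followed, at means of 11.9, 8.92, 5.27 and 3.54 CPM per kb. After delay Acta2 led with 109.9 ± 22.4 CPM per kb (SD, n = 9), ahead of Mcam with 91.6 ± 18.3, and those neighbours differed by less than the SD of Acta2. Tagln, Pdgfrb and Rgs5, at 64.2 ± 22.7, 52.2 ± 8.21 and 47.0 ± 15.6, each differed from its neighbour by less than the larger SD, as did Myh11 and Des, at 13.5 ± 5.95 and 13.4 ± 14.8. Cspg4 ranked 7 of 10 after immediate repair and 9 of 10 after delay.

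The higher mural genes stood beside higher endothelial markers. Of 12 endothelial markers tested in the stump, 10 were higher after delay (against 12.8% of all genes) and 0 lower, with a median log2 fold change of 0.70. Pecam1, which encodes CD31, rose from 206.8 ± 43.9 CPM (SD, n = 7) to 337.4 ± 38.1 CPM (SD, n = 9), with a log2 fold change of 0.71 (SE 0.12, adjusted p = 0.000369, edgeR). Cdh5, the VE-cadherin of endothelial junctions, rose by a log2 fold change of 0.71 (adjusted p = 0.000403), Tek, the angiopoietin receptor, by 0.69 (adjusted p = 6.51e-05) and Tie1 by 0.76 (adjusted p = 0.000477). The 12 markers summed to 941.3 to 1338 CPM in the immediate and 1524 to 2178 CPM in the delayed libraries, so that the groups did not overlap.

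When the libraries were scaled on the summed counts of those 12 endothelial markers in place of TMM, the higher calls of the mural genes were lost. On this scale a value says how a gene changed relative to the endothelial markers. The median log2 fold change of the 10 genes was -0.093, where the median over all genes was -0.63. Acta2 amounted to 13.3 ± 3.37% of the endothelial counts (SD, n = 9) after delay and to 13.2 ± 2.28% (SD, n = 7) after immediate repair, a log2 fold change of 0.011 with an interval of ± 2 SE from -0.30 to 0.32. Rgs5 changed by 0.25 (interval -0.18 to 0.69) and Pdgfrb by -0.22 (interval -0.50 to 0.067), and neither was called. The highest values were those of Des, at 0.73 (adjusted p = 0.105, edgeR), and Notch3, at 0.36 (interval 0.013 to 0.71, adjusted p = 0.0647), and neither was called. None of the 10 genes was called higher (0 of 10, against 0.327% of all genes). Cspg4 and Mcam were called lower (2 of 10, against 77.7% of all genes), with log2 fold changes of -1.33 (adjusted p = 6.27e-05) and -0.58 (adjusted p = 0.000668). This scaling was chosen after the values were seen.

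**Figure D2:**
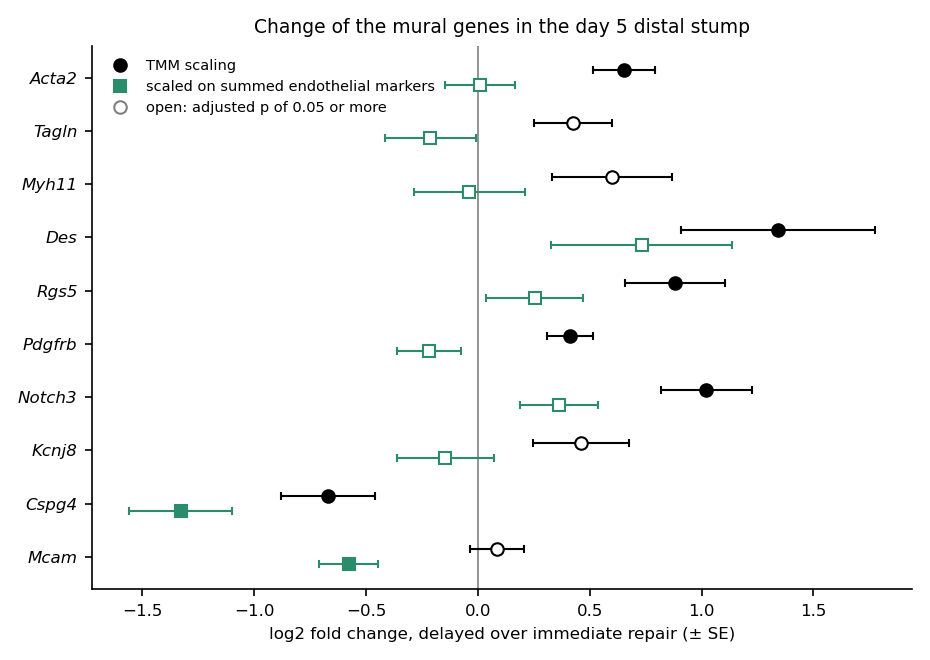
Log2 fold change of each mural gene in the day 5 distal stump, delayed over immediate repair, ± SE; circles use TMM scaling, squares scaling on the summed endothelial markers, and filled symbols have an adjusted p under 0.05. On TMM scaling 5 genes are filled to the right of 0 and Cspg4 to the left; relative to the endothelial markers Acta2 sits at 0.011 and the filled squares, Cspg4 and Mcam, lie below 0.

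Among the genes for PDGF and Notch ligands, some were higher after delay and Pdgfa was lower. Pdgfb, the ligand of Pdgfrb, ranged from 30.9 to 51.3 CPM (median 49.6) after immediate repair and from 50.3 to 98.9 CPM (median 78.1) after delay, with a log2 fold change of 0.75 (SE 0.15, adjusted p = 0.00185, edgeR). Of the 5 genes for PDGF ligands and the partner receptor, 2 were higher, 1 lower and 2 not called, where 12.8% of all genes tested were higher and 13.5% lower; 1 of 5 lower is near that share. Pdgfd was higher (0.49, adjusted p = 0.0354), Pdgfa was lower (-0.63, adjusted p = 0.0254), and Pdgfra was not called (0.34, adjusted p = 0.0961). The call of Pdgfd was lost in 9 of 16 fits that left out 1 library (adjusted p up to 0.0946), with no filter on low counts (0.44, adjusted p = 0.0896) and in limma-voom (0.40, adjusted p = 0.0581), and that of Pdgfa without immediate replicate 2 or 3 (-0.55 and -0.54, adjusted p of 0.0658 and 0.0558). Both were also lost under the replicate block (adjusted p of 0.137 and 0.123). Without the muscle-gene libraries, Pdgfb was the only one of the 5 that was called.

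Of 11 other genes for Notch ligands, receptors and targets that were tested, 6 were higher after delay (against 12.8% of all genes), 0 lower and 5 not called, with a median log2 fold change of 0.55. Dll4, an endothelial Notch ligand, rose from 18.4 ± 4.75 CPM (SD, n = 7) to 42.1 ± 16.4 CPM (SD, n = 9), with a log2 fold change of 1.19 (SE 0.26, adjusted p = 0.00273, edgeR). Jag1, the ligand that acts on mural Notch3, lay between 82.2 and 124.8 CPM after immediate repair and between 124.3 and 147.4 CPM after delay, with a log2 fold change of 0.44 (SE 0.085, adjusted p = 0.00131). Notch4, the endothelial receptor, rose by 0.93 (adjusted p = 0.00614). Heyl, a target of Notch signalling in smooth muscle, rose from 11.7 ± 2.15 CPM (SD, n = 7) to 21.9 ± 6.68 CPM (SD, n = 9), by 0.92 on the log2 scale (SE 0.18, adjusted p = 0.00165).

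Of 20 other genes listed for smooth muscle, not all of them for contractile proteins, 16 passed the filter. Of these, 5 were higher, 2 lower and 9 not called, with a median log2 fold change of 0.23. Over all genes tested 12.8% were higher and 13.5% lower, so the 2 of 16 lower are near the background. Mylk, the myosin light chain kinase, rose by 0.89 (SE 0.15, adjusted p = 0.000473, edgeR), Aoc3, an amine oxidase of vascular smooth muscle, by 0.84 (adjusted p = 0.00217), Lmod1, the smooth muscle leiomodin, by 0.85 (adjusted p = 0.0263) and Synpo2 by 0.72 (adjusted p = 0.0217). Sncg was lower (-1.38, adjusted p = 0.023), as was Itga8 (-0.97, adjusted p = 0.0367), which is named here after its value was seen. The call was lost for Lmod1 without immediate replicate 2 or 7 (0.77 and 0.70, adjusted p of 0.065 and 0.0568), for Synpo2 without immediate replicate 2 (0.61, adjusted p = 0.0545) and for Sncg without immediate replicate 2 or 6 (-1.08 and -1.29, adjusted p of 0.075 and 0.0501). Lmod1 and Synpo2 also lost their calls with the replicate block in edgeR (0.70 and 0.69, adjusted p of 0.115 and 0.0567). Actg2, the enteric smooth muscle actin, had a log2 fold change of 0.71 that did not pass in edgeR (adjusted p = 0.0747) but passed in DESeq2 (0.71, adjusted p = 0.0497) and in edgeR without delayed replicate 2 (0.81, adjusted p = 0.0413) or immediate replicate 8 (0.85, adjusted p = 0.0432). Cnn1 and Myocd, which encode calponin 1 and the coactivator of the contractile genes, were below the filter, at means of 4.48 ± 4.23 and 2.44 ± 1.15 CPM after delay (SD, n = 9) and 3.20 ± 0.80 and 1.37 ± 0.88 CPM after immediate repair (SD, n = 7).

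Of 20 other pericyte genes, 17 passed the filter, and 6 were higher, 2 lower and 9 not called, with a median log2 fold change of 0.10. Over all genes tested 12.8% were higher and 13.5% lower, and the 2 of 17 lower are near that share. Ednra, the endothelin A receptor of mural cells, rose by 0.77 (SE 0.16, adjusted p = 0.00203, edgeR) and Rgs4 by 0.78 (adjusted p = 0.00373). Foxs1, a forkhead factor, was lower, at 16.04 ± 4.95 CPM (SD, n = 7) after immediate repair and 7.68 ± 2.02 CPM (SD, n = 9) after delay (-1.06, adjusted p = 0.000864). Enpep, named after its value was seen, was also lower (-0.47, adjusted p = 0.0481).

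**Figure D3:**
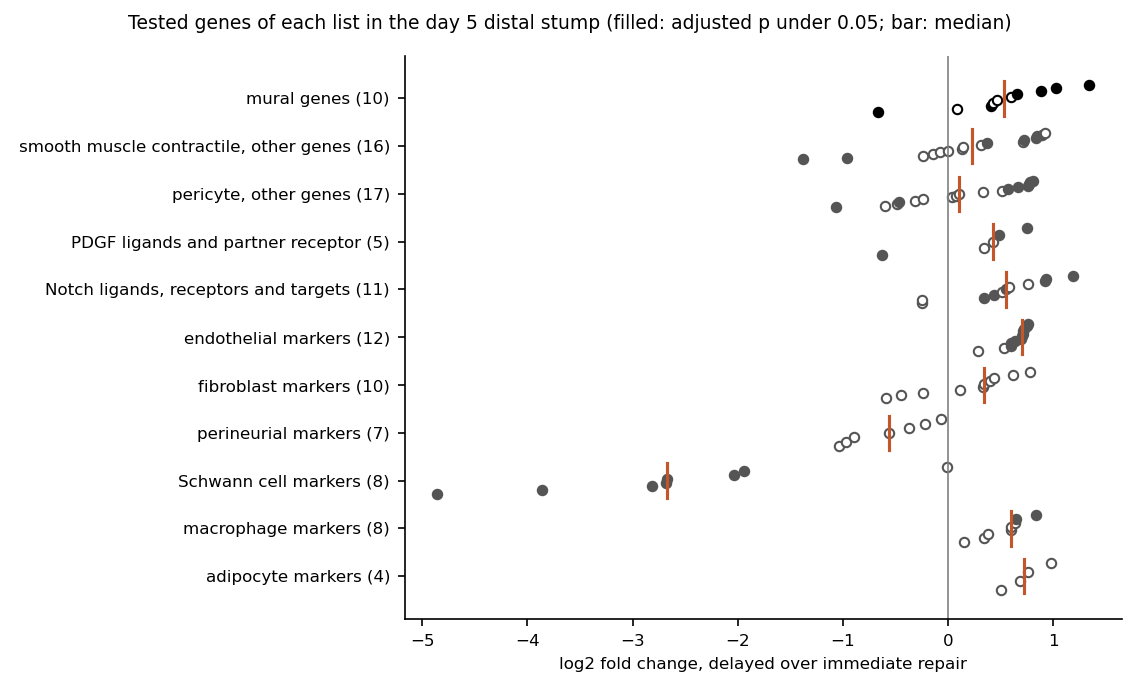
Log2 fold change, delayed over immediate repair, of every tested gene in the 10 mural genes and in 10 lists of other markers in the day 5 distal stump; the number of genes tested is in brackets, filled points have an adjusted p under 0.05 and the bar is the median. The mural genes centre on 0.53, the endothelial markers on 0.70, the macrophage markers on 0.60, the 4 adipocyte markers on 0.72 and the Schwann cell markers on -2.67.

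The other lists place these values in the tissue. Of 8 Schwann cell markers tested, 7 were lower after delay (against 13.5% of all genes) and 0 higher, with a median log2 fold change of -2.67; S100b changed by -4.86 (adjusted p = 8.9e-07, edgeR). Of 8 macrophage markers, 2 were higher in edgeR, Csf1r (0.64, adjusted p = 0.0168) and Emr1 (0.84, adjusted p = 0.0334), and 0 lower. Over all genes 12.8% were higher, and the count is no result about the list. The median log2 fold change of the list was 0.60, beside 0.53 for the mural genes. Itgam, Fcgr1 and Mrc1 had an unadjusted p of 0.0184, 0.0234 and 0.0482 (edgeR), and Cd14, C1qa and Cd68 of 0.186 to 0.566. The summed markers were above the immediate mean in all 9 delayed libraries and above the highest immediate library in 3. The call of Emr1 was lost in 8 of 16 fits that left out 1 library, with adjusted p up to 0.0813, and with no filter on low counts (0.78, adjusted p = 0.0664), and the count of macrophage markers called was 5 without immediate replicate 4 and 1 without the muscle-gene libraries. With the replicate block in edgeR the calls of Csf1r and Emr1 were lost (adjusted p of 0.0828 and 0.0647). Of 7 perineurial markers 0 were called in edgeR (3 at an unadjusted p under 0.05, and 3 in DESeq2, all lower), and of 4 adipocyte markers 0 in either tool (0 at an unadjusted p under 0.05). The median log2 fold change was -0.56 for the perineurial and 0.72 for the adipocyte markers. None of the 15 skeletal muscle markers passed the filter; with edgeR's filterByExpr 2 of the 2 tested were called higher after delay, and with no filter on low counts 12 of 15.

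The 10 genes did not vary as one block between animals of a group. Centred on group means, Acta2 and Tagln moved together over the 16 stump libraries (Pearson's r = 0.74, Spearman's rho = 0.72), with r = 0.81 within the delayed and 0.68 within the immediate libraries, and 0.87 over the 14 libraries left without the muscle-gene libraries. Rgs5 and Pdgfrb did not (r = -0.27, rho = -0.14). The gene closest to Kcnj8 among all genes tested was Abcc9 over the 16 libraries (r = 0.90), while over the 14 it came after Abhd16a (0.862 and 0.869), and the gene closest to Myh11 was Lmod1 (r = 0.87, and 0.80 over the 14). Hspb8 and Myl9 were closest to Tagln over the 16 libraries (r = 0.89 and 0.87), and Acta2 over the 14 (r = 0.87). Timp1 was closest to Acta2 over the 16 (r = 0.92), and Tmem97 over the 14 (r = 0.93, with Timp1 next at 0.90). Vsig2 was closest to Notch3 (r = 0.95, and 0.96 over the 14) and Fbxo7 to Cspg4 (r = 0.93, and 0.97 over the 14). Eno3, the muscle enolase, was closest to Des over 16 libraries (r = 0.89), and Cd14 over the 14 libraries (r = 0.88). The closest genes were picked as the highest of 12229 and are descriptions of these libraries.

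The effect of delay on the 10 genes was compared between sexes by the interaction of repair and sex. Of the 10 genes 0 were called, as were 0% of the 12229 genes tested in edgeR, 272 of them at an unadjusted p under 0.05, and DESeq2 also called 0. The interaction was widest for Des, where the log2 fold change of females exceeded that of males by 1.33 (SE 0.81); both muscle-gene libraries are from females.

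The sorted fractions were examined as a check of carry-over, since the study's methods name antibodies against endothelial, fibroblast and blood cells for exclusion and none against mural cells. Cells were also selected positively, SC for GFP and macrophages for F4/80, CD14, CD16/32 and CD11b. Libraries of sorted cells were made by a different method than those of the stump and were scaled on their own totals, so levels are set side by side without a test. In the macrophage fraction the 10 genes together summed to 1.68 to 25.6 CPM in 32 libraries, where 8 macrophage markers summed to 10324 to 15506 CPM. Acta2 was the most abundant, at 0.608 to 9.37 CPM with a median of 2.90, and its mean at day 5 was 1.43% of that in the stump. Kcnj8, Myh11, Rgs5, Mcam and Des had no count in 29, 28, 21, 21 and 19 of the 32 libraries. The depth sets what could be seen: 3 counts, the limit that a count of 0 allows, amount to 0.105 to 0.201 CPM in these libraries, counting error only.

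**Figure D4:**
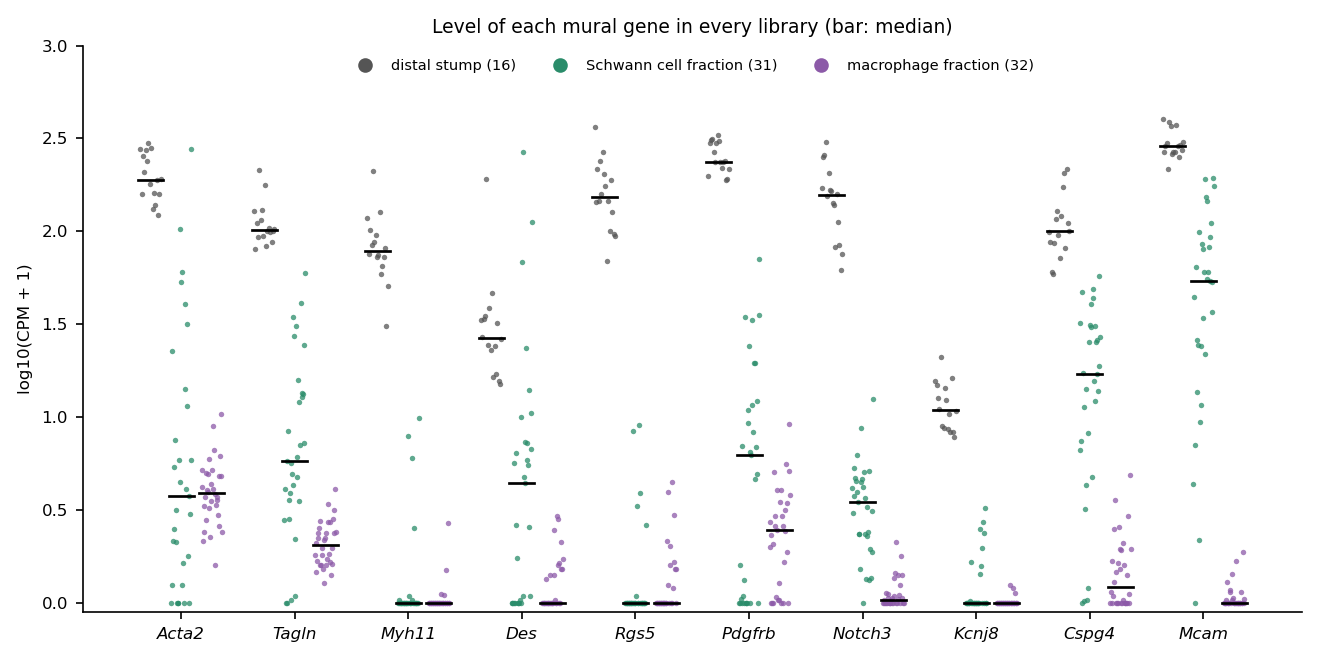
Level of each mural gene as log10(CPM + 1), CPM by library total, in 16 stump, 31 Schwann cell fraction and 32 macrophage libraries; each point is a library and bars are medians. Myh11, Rgs5 and Kcnj8 have a median of 0 in both sorted fractions, and Mcam and Cspg4 are the mural genes with the highest medians in the Schwann cell fraction.

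None of the 10 genes reached the filter in the macrophage comparisons. Delayed and immediate macrophages differed for 0.0357% of 8409 genes tested at day 5 and 0% of 8589 at day 14 in edgeR (435 and 190 at an unadjusted p under 0.05; DESeq2 called 17 and 0), and 25.5% of 8949 genes differed between days. With no filter on low counts, 5 of the 10 genes were called between days in the macrophages, all higher at day 14 (5 of 10, against 8.65% of the 17218 genes of that fit that were higher): Myh11, Des, Rgs5, Notch3 and Kcnj8. Myh11, Rgs5 and Kcnj8 had no count in any of the 17 day 5 libraries, so those calls compare with a group at 0. Their highest level in any macrophage library was 3.48 CPM, for Rgs5.

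In the SC fraction the 10 genes differed widely. Myh11, Rgs5 and Kcnj8 were near 0, with no count in 24, 25 and 22 of 31 libraries and highest values of 8.94, 8.05 and 2.26 CPM. Notch3 had no count in 1 of 31 libraries and a median of 2.50 CPM. Its day 5 median was 2.03% of its mean in the stump, which was sampled at day 5 only. Cspg4 and Mcam were present in 30 of 31 libraries, with medians of 16.1 and 53.4 CPM and highest values of 56.9 and 192.6 CPM, and their day 5 medians of 6.88 and 23.3 CPM amounted to 6.13% and 7.79% of their mean in the day 5 stump. Acta2, Tagln, Des and Pdgfrb had medians of 2.79, 4.85, 3.44 and 5.27 CPM over both days, and Acta2 and Des had a few high libraries. At day 14 the medians of the 4 genes were 3.13, 11.8, 5.72 and 7.36 CPM. They reached 5 CPM in 6, 12, 8 and 11 of 15 libraries at day 14, against 4, 3, 3 and 5 of 16 at day 5. The SC libraries were also uneven in their own markers: 9 Schwann cell markers summed to 21.5 to 2277 CPM, under 100 CPM in 5 libraries, all of day 5, and 8 macrophage markers summed to 128.2 to 5250 CPM.

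Cspg4 and Mcam followed the Schwann cell markers in the SC fraction. Centred on the group means, Cspg4 had a Pearson's r of 0.83 (Spearman's rho = 0.87) with the mean log2(CPM + 1) of the 9 markers over 31 libraries, and Mcam of 0.86 (rho = 0.85). Within the 4 groups r was between 0.675 and 0.955 for Cspg4 and between 0.66 and 0.927 for Mcam. For the other 8 genes r was between -0.14 and 0.46, highest for Pdgfrb (0.46) and Tagln (0.41). With the fibroblast markers r was 0.54 for Cspg4, 0.53 for Mcam and 0.56 for Pdgfrb. With the endothelial markers it was highest for Notch3 (0.61), Myh11 (0.50) and Acta2 (0.45) and lowest for Kcnj8 (-0.24). With the skeletal muscle markers it was highest for Des (0.75), Acta2 (0.56) and Notch3 (0.56) and lowest for Kcnj8 (-0.28). All points share the sort and the amplification, and these relations are descriptions.

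**Figure D5:**
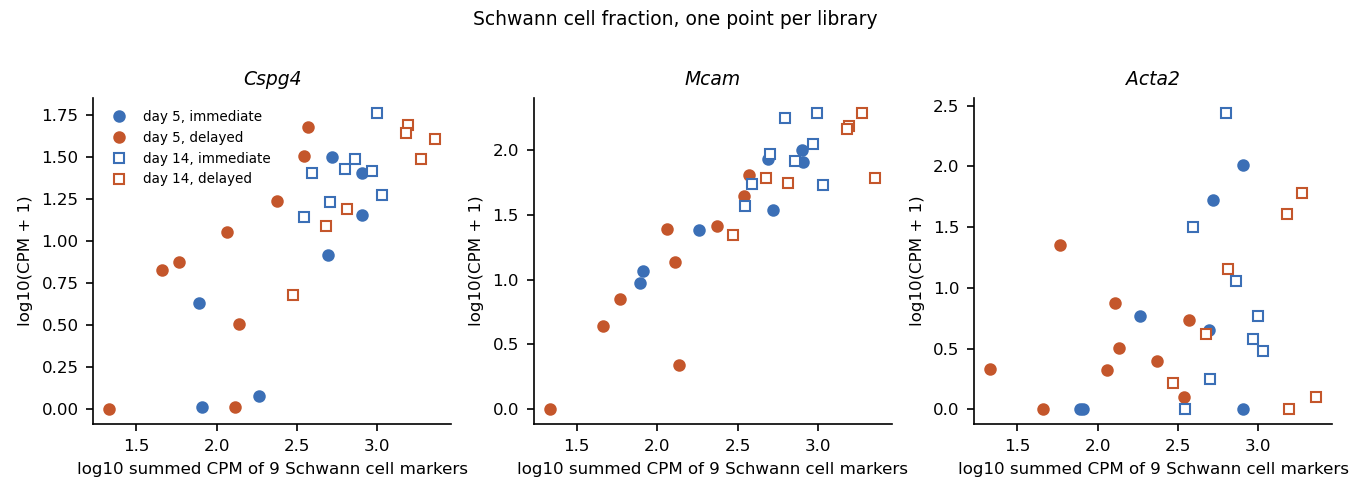
Cspg4, Mcam and Acta2 as log10(CPM + 1) against the log10 summed CPM of 9 Schwann cell markers in 31 libraries of the Schwann cell fraction; filled symbols are day 5, open symbols day 14, and each point is a library. Cspg4 and Mcam climb with the Schwann cell markers (r of 0.83 and 0.86 on group-centred values), and Acta2 is high in a few libraries.

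The highest levels of Acta2 and Des in the SC fraction were found in single libraries. At day 14, Acta2 was 276 CPM in immediate replicate 8, where the group's median was 3.84, and Des was 266.6 CPM in delayed replicate 2 and 111.7 CPM in immediate replicate 8, where the medians were 4.87 and 5.98. The same 2 libraries held 750.3 and 504.4 CPM of skeletal muscle markers, against 2.47 to 95.0 CPM in the other 29. Immediate replicate 8 also held the highest summed endothelial markers of the fraction (453.2 CPM, where the median was 98.85), the highest Notch3 (11.5 CPM) and the highest Myh11 (8.94 CPM). Acta2 was next highest, at 101.6 CPM, in immediate day 5 replicate 7, which held 9.05 CPM of muscle markers, 57.98 CPM of endothelial markers and 6.94 CPM of Myh11. The part of muscle or vessel RNA in these values was not tested. Rgs5 was 8.05 CPM or less in every library of this fraction.

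None of the 10 genes was called between repair groups in the SC fraction. At day 5, 2 of the 10 genes passed the filter, Cspg4 and Mcam, and 0 were called, as were 0% of the 9604 genes tested in edgeR (505 at an unadjusted p under 0.05; DESeq2 called 14 genes, none of the 10). Cspg4 was 0.035 to 30.5 CPM (median 7.26) after immediate repair and 0 to 46.4 CPM (median 6.49) after delay. Mcam was 8.45 to 98.7 CPM (median 33.1) after immediate repair and 0 to 63.0 CPM (median 12.7) after delay, and the groups overlapped. At day 14, 6 of the 10 passed the filter and 0 were called, as were 0% of 10226 genes (373 at an unadjusted p under 0.05; DESeq2 called 3, none of the 10). Mcam then was 35.8 to 192.6 CPM (median 87.05) after immediate repair and 21.0 to 190.6 CPM (median 59.6) after delay.

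Between days, 1 of the 6 genes tested in the SC fraction was called: Mcam was higher at day 14 (1 of 6, against 7.28% of the 10923 genes tested that were higher). It ranged from 0 to 98.7 CPM with a median of 23.3 over 16 libraries at day 5 and from 21.0 to 192.6 CPM with a median of 81.7 over 15 libraries at day 14, and the days overlapped. The log2 fold change, adjusted for repair timing, was 1.53 (SE 0.50, adjusted p = 0.0289, edgeR). The call was lost without the 5 libraries that held under 100 CPM of Schwann cell markers (1.08, adjusted p = 0.103), without the 3 libraries with the most muscle markers (1.33, adjusted p = 0.0931) and without delayed day 14 replicate 2 alone (1.40, adjusted p = 0.051). Beside it, the Schwann cell markers summed to a median of 159.8 CPM at day 5 and 725.2 CPM at day 14, and their part in the level of Mcam was not tested. Acta2, Tagln, Des, Pdgfrb and Cspg4 were not called in edgeR (adjusted p of 0.147 to 0.476). Their log2 fold changes were 1.15, 1.27, 2.78, 2.25 and 0.99. DESeq2 also called Des (2.68, adjusted p = 0.0407), and limma-voom Tagln and Des (2.41 and 4.38, adjusted p of 0.0403 and 0.0434). At day 5 Tagln and Des each reached 5 CPM in 3 of 16 libraries, against 12 and 8 of 15 at day 14. In edgeR without the 3 libraries with the most muscle markers they were 0.717 and 1.997 (adjusted p of 0.518 and 0.236). Without the 5 libraries low in Schwann cell markers they were 0.859 and 2.294 (adjusted p of 0.374 and 0.368, edgeR).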

How the data were processed

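Expected counts per gene were deposited by the authors as 3 tables (stump, SC and macrophages). Per the study's methods and the submitters' processing notes, single-end reads were trimmed with cutadapt 1.8 and aligned with TopHat2 2.1.1 to mm10 under its first-strand library setting, and Cufflinks 2.2.1 and Cuffnorm are named; the program that wrote the counts, and whether it used strand, are not given in the sources used here. Stump libraries were made after rRNA was removed from 100 ng of RNA, sorted libraries from 1000 cells with amplification. Counts that were not whole (0.951 to 1.18% of values) were rounded. The test covered every gene that reached 5 CPM in 6 or more of the libraries compared, with edgeR 4.0.16 (TMM, quasi-likelihood test, Benjamini-Hochberg adjustment) under R 4.3.3. SE is the absolute log2 fold change over the square root of F. DESeq2 1.42.0, limma 3.58.1 (voom), other filters and scalings, sex, a replicate block and leaving out each library were alternatives. Replicates are separate animals, and 0 of 1081 pairs of libraries held the same counts.

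Members and marker lists were chosen with earlier results of these data known. Named genes are the 10, fixed partners, up to 4 genes of each list with the smallest p, and up to 2 genes closest to each member. Some genes that this rule names are not reported here. On simulated stump counts for 12229 genes, 90% of genes changed by 1 on the log2 scale and 96% of those changed by 2 were recovered; the shares were 27% and 69% for the SC fraction at day 14 (10226 genes) and 44% and 76% between its days (10923 genes). The simulation changed 100 genes at each size, where 3221 were called in the real stump. It held no change as small as those of Tagln, Myh11, Kcnj8 and Mcam (0.42, 0.60, 0.46 and 0.086). Its shares therefore do not say how often such changes would be called. Values in the sorted fractions are CPM by library total. Intervals of ± 2 SE include the spread between animals, and the floor of 3 counts covers counting error only. Gene positions are from GENCODE on GRCm38, and promoters from RefSeq.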

Additional observations from a re-analysis of the deposited data

Results flagged for a closer look

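In 44 groups of values, 9 had a single highest sample that stood apart from its group by Dixon's test, where chance gives about 1 in 20 groups. In the stump, delayed replicate 5 stood apart for Myh11 (216.9 CPM), for Des (196.4 CPM) and for the summed skeletal muscle markers (3082 CPM). Immediate replicate 4 stood apart for Kcnj8 (15.39 CPM) and immediate replicate 2 for Mcam (363.9 CPM).

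In the SC fraction at day 14, immediate replicate 8 stood apart for Acta2 (276 CPM) and Des (111.7 CPM), and delayed replicate 2 for Des (266.6 CPM). Both carry skeletal muscle markers, whose part in these values was not tested. Immediate replicate 7 stood apart for Cspg4 (56.85 CPM).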

How the results depend on the processing

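Of the 10 genes, 6 were called in the stump, and the count was 6 with DESeq2, library size scaling, edgeR's filterByExpr and no filter beyond 1 count, 7 with limma-voom, 5 with sex as a covariate and 4 to 7 without each library in turn. Acta2, Rgs5, Pdgfrb and Notch3 kept their calls in all of these. Scaling on the endothelial markers gave 2 calls, of which Cspg4 was kept and Mcam gained, and turned the direction of Tagln (-0.21), Myh11 (-0.038), Pdgfrb (-0.22), Kcnj8 (-0.15) and Mcam (-0.58); it moved the median of all genes to -0.63.

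The replicate numbers of the stump groups belong to different animals, and 1 of 7 same-numbered pairs had a correlation of deviations over 0.1, so they are not pairs. With a replicate block in edgeR 2 of the 10 genes were called, Acta2 (0.57, adjusted p = 0.0482) and Notch3 (1.15, adjusted p = 0.00206), and 2178 genes in all against 3221. The calls of Des (0.61, adjusted p = 0.0554), Rgs5 (0.88, adjusted p = 0.0806), Pdgfrb (0.38, adjusted p = 0.0501) and Cspg4 (-0.59, adjusted p = 0.0792) were lost. Pairs over 0.1 were 3 of 7 and 2 of 7 in the SC fraction at days 5 and 14, and 7 of 8 and 6 of 7 in the macrophages. The block gave 0 calls among the 2 and 6 of the 10 genes tested in the SC fraction; none was tested in the macrophages.

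Between days in the SC fraction the count was 1, against 2 with DESeq2, 3 with limma-voom, 0 without the libraries low in Schwann cell markers, 0 without the 3 with most muscle markers, and 0 to 2 without each library in turn (2 without immediate day 5 replicate 8, where Des was 4.11, adjusted p = 0.0151). Without the latter 3 SC libraries Acta2 turned to -0.19. In the macrophages the count between days was 0, and 5 with no filter, where 8.65% of 17218 genes were higher and 3 of the 5 had no count at day 5. No other repair or sex comparison changed its count of 0 under the alternatives run. Depth limits Kcnj8, which rests on 31 to 147 counts per stump library.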
